A study of Homo sapiens with 9 samples.

Results

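The genes described here are 9 genes of mast cells and basophils, the transcription factor gene GATA2 among them, followed across the 3 groups of arrays in a study of RHOH in the human cell line HL-60 clone 15. They were taken from a list of symbols (GATA2, KIT, CPA3, SIGLEC6, HDC, FCER1A, MS4A2, HPGDS and ENPP3), and 7 of the 9 had a named probe set among the 14778 named genes. FCER1A and MS4A2, which encode subunits of the high-affinity IgE receptor, had none, and their expression is not analysed here. Each of the 7 had a single named probe set. The genes were selected on the log2 signals of these arrays and on their known roles. The list was put together with the signals of these same arrays known, so the differences and calls of the 7 genes below describe the arrays and are not independent evidence.

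HL-60 is an established human promyelocytic leukaemia line, and clone 15 is a subline that can be driven towards eosinophils. Cultures carried an inducible lentiviral construct for RhoH (HL-60-RhoH), a GTPase of blood cells, or for GFP (HL-60-GFP), a fluorescent control protein, and the inducer was 100 nM 4-OHT, 4-hydroxytamoxifen. The groups were RhoH cells with 4-OHT, RhoH cells without 4-OHT and GFP cells with 4-OHT, with 3 arrays each, which the submitters' design calls biological replicates. All 3 groups share the parent clone and a lentiviral transduction. No group of GFP cells without 4-OHT is analysed here, so an effect of the drug and a difference between the transduced populations cannot be told apart where both GFP and induced RhoH cells differ from uninduced RhoH cells.

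Mast cells and basophils arise from myeloid progenitors in which GATA2 is a key transcription factor, and GATA2 is needed for both lineages to form. KIT, the receptor of stem cell factor, keeps mast cells alive and is turned down in most other myeloid cells as they mature. CPA3 is a protease of mast cell granules, HDC makes histamine, HPGDS makes prostaglandin D2, ENPP3 (CD203c) is a surface enzyme of basophils and mast cells, and SIGLEC6 is a sialic acid-binding receptor of mast cells with an inhibitory motif. Both lineages answer to IgE bound at its receptor, which signals through kinases such as LYN and SYK and the adaptor LAT.

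The gene carried by the construct did not follow the labels in full. RHOH had a log2 signal of 5.59 ± 0.14 (SD, n = 3) in arrays labelled RhoH with 4-OHT, 5.21 ± 0.06 in those labelled RhoH without 4-OHT and 5.93 ± 0.02 in those labelled GFP with 4-OHT, so directions are given by label only. Induced and uninduced, in text and captions, name RhoH cells labelled with and without 4-OHT. They do not state that RHOH was above its level in GFP cells. The median signal over all probe sets was 5.43 to 5.55 on the 9 arrays. The replicate 1 arrays of both RhoH groups and replicate 3 of RhoH with 4-OHT lay farthest from their group means (SD of the deviations up to 0.206, with 0.0904 to 0.162 for the other 6 arrays). Of 7 promyelocyte markers 4 were measured (MPO, AZU1, PRTN3 and CTSG), and their mean log2 signal was 11.82 to 12.18, 12.28 to 12.32 and 10.58 to 10.62 in the arrays of RhoH with 4-OHT, RhoH without 4-OHT and GFP with 4-OHT. These defining markers of a promyelocytic line were thus bright in all 3 groups.

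The windows around the annotated starts of the 4 genes that differed most are shown with that of HPGDS, a member with no call, because the letters of the GATA motif are found in some and not in others. They are RefSeq sequences of GRCh38.p14, from 250 bases before to 50 after the start, in gene direction, and the capitals mark AGATAA, its form AGATAG with another last base, the form TGATAA with another first base, or TGATAG with both changed, on either strand. The CPA3 window is chr3:148865046-148865345 (plus strand), HPGDS chr4:94342787-94343086 (minus), SIGLEC6 chr19:51531621-51531920 (minus), KIT chr4:54657707-54658006 (plus) and the first of the 2 GATA2 windows chr3:128493152-128493451 (minus).
CPA3: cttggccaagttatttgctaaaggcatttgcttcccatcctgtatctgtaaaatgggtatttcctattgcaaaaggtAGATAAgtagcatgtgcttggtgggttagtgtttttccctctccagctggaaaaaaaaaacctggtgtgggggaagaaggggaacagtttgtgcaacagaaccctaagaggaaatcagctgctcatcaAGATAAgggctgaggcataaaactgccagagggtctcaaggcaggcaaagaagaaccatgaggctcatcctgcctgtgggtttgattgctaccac
HPGDS: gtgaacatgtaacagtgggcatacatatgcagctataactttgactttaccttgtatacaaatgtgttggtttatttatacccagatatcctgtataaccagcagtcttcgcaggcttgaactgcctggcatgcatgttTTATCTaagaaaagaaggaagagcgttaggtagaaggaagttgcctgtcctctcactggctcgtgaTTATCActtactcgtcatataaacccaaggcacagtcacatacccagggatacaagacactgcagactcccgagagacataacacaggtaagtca
SIGLEC6: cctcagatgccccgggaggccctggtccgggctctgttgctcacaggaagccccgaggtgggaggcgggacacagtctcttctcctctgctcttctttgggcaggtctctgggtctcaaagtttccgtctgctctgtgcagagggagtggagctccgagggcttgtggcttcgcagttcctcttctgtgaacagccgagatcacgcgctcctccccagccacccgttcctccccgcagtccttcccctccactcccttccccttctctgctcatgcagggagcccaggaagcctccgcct
KIT: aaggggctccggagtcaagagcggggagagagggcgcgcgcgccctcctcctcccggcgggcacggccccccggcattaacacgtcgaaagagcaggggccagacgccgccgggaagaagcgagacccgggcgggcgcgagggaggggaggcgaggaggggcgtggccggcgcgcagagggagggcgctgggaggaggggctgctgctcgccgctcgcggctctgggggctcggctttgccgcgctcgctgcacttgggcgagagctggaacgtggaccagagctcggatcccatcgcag
GATA2: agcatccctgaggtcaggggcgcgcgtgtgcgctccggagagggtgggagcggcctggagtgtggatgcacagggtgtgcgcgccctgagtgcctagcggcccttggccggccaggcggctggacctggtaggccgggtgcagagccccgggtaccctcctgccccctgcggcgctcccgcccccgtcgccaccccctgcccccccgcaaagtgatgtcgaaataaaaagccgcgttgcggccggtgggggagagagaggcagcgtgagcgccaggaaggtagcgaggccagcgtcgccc
CPA3 held AGATAA at -173 and -45, and HPGDS held TTATCT, its reverse complement, at -111 and TTATCA at -45. The windows of FCER1A and MS4A2 held 1 match each, while those of KIT, SIGLEC6, HDC, ENPP3 and both of GATA2 held 0. Of 35116 annotated promoter windows of this length, 8769 (25%) held at least 1 match and 6.08% at least 2. A match is a run of letters and not a bound site, and its absence says only that the letters are not in this window.

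GATA2 signal was highest in RhoH cells with 4-OHT. Its log2 signal was 9.21, 9.11 and 9.16 in arrays labelled RhoH with 4-OHT, 7.93, 8.28 and 8.16 in those labelled RhoH without 4-OHT, and 8.54, 8.48 and 8.43 in those labelled GFP with 4-OHT. No array of a group reached into another group, and GFP cells lay between both RhoH groups. The difference was 1.04 (SE 0.10) between RhoH cells with and without 4-OHT, or 2.05-fold (limma adjusted p = 0.000347 over all named genes). Against GFP cells it was 0.67 (SE 0.10, adjusted p = 0.00444) in RhoH cells with 4-OHT and -0.36 (SE 0.10, adjusted p = 0.0344) in RhoH cells without 4-OHT. The first and second calls held in all 19 alternatives. The third was lost in 6, among them those without RhoH without 4-OHT replicate 1 (adjusted p = 0.0754) or replicate 3 (0.0774), without GFP replicate 1 (0.126), 2 (0.106) or 3 (0.0827), and with all probe sets tested (0.0740). In RNA of whole cultures, more cells with a transcript and more transcript per cell cannot be told apart, here and below.

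KIT had a different order, with its highest signal in GFP cells. Its log2 signal was 4.76, 4.70 and 4.76 in RhoH cells with 4-OHT, 4.22, 4.06 and 3.94 in RhoH cells without 4-OHT, and 5.31, 5.29 and 5.23 in GFP cells with 4-OHT. The groups did not overlap in any pairing. RhoH cells with 4-OHT were above those without by 0.67 (SE 0.09, 1.59-fold, adjusted p = 0.00290) and below GFP cells by a difference of -0.53 (SE 0.09, adjusted p = 0.00817). Uninduced RhoH cells differed from GFP cells by -1.20 (SE 0.09, adjusted p = 1.32e-05). The call against GFP in induced cells was lost without GFP replicate 1 (adjusted p = 0.0506). The probe set was dim, at percentile 9.17 to 28.9 of all named genes on the 9 arrays, where the RMA scale compresses differences.

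CPA3 was higher in both RhoH groups than in GFP cells. Its log2 signal was 8.41, 8.27 and 8.13 in RhoH cells with 4-OHT, 7.31, 7.45 and 7.68 in RhoH cells without 4-OHT, and 6.16, 6.52 and 6.39 in GFP cells with 4-OHT. The 3 groups did not overlap. The difference from GFP cells was 1.91 (SE 0.13, 3.77-fold, adjusted p = 4.74e-05) in induced RhoH cells, the third highest fold change of all named genes in that comparison, and 1.12 (SE 0.13, adjusted p = 0.000246) in uninduced ones. RhoH cells with 4-OHT were above those without by 0.79 (SE 0.13, 1.73-fold, adjusted p = 0.00795), and this call was lost when both RhoH replicate 1 arrays were left out (0.64, adjusted p = 0.0533). Of the measured markers, 4 of 4 promyelocyte and 2 of 5 eosinophil genes were also called higher in induced RhoH than in GFP cells. Of all named genes 1.74% were. With 4-OHT in RhoH cells 0 of these 4 and 5 genes were called higher, a count near the 3.02% of all named genes. The promyelocyte marker CTSG was called lower there, against 0.751% of all named genes.

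SIGLEC6 was lowest in RhoH cells without 4-OHT, the only group without the drug. An effect of 4-OHT and a difference between the transduced populations cannot be told apart here, nor for genes below with this order. Its log2 signal was 10.32, 9.68 and 9.43 in RhoH cells with 4-OHT, 7.30, 7.01 and 7.26 in RhoH cells without 4-OHT, and 10.18, 10.33 and 10.32 in GFP cells with 4-OHT. The 6 arrays with 4-OHT were all above the 3 without, and the induced RhoH and GFP arrays overlapped through replicate 1 of the RhoH cells. Induced RhoH cells were above uninduced ones by 2.62 (SE 0.19, 6.14-fold, adjusted p = 7.39e-05), the seventh highest fold change of all named genes there. Uninduced RhoH cells differed from GFP cells by -3.09 (SE 0.19, 8.50-fold, adjusted p = 4.89e-06). Between induced RhoH and GFP cells the difference was -0.47 (95% interval -0.90 to -0.04, adjusted p = 0.263). Without RhoH with 4-OHT replicate 1 it was -0.72 and passed the threshold (adjusted p = 0.0125), as it did without both RhoH replicate 1 arrays (0.0117) and with array weights (-0.54, adjusted p = 0.0336).

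HDC, HPGDS and ENPP3 were dim in all groups, and none was called in any comparison. HDC, the histamine-forming decarboxylase gene, had log2 signals of 5.04, 5.30 and 4.95 in RhoH cells with 4-OHT, 4.72, 4.97 and 5.09 without, and 4.97, 5.00 and 4.97 in GFP cells. HPGDS, the prostaglandin D synthase gene, had 4.10, 3.43 and 3.77 in RhoH cells with 4-OHT, 3.73, 3.73 and 3.60 without, and 3.68, 3.87 and 3.85 in GFP cells. ENPP3 had 4.61, 4.62 and 4.56 in RhoH cells with 4-OHT, 4.78, 4.60 and 4.63 without, and 4.35, 4.58 and 4.58 in GFP cells. The groups overlapped for all 3 genes except for ENPP3 between uninduced RhoH and GFP cells, whose difference was 0.17 (SE 0.09, adjusted p = 0.293). In that pairing the arrays did not overlap for 37.3% of all named genes. With 4-OHT in RhoH cells the 95% intervals of the difference ran from -0.10 to 0.44 for HDC, -0.25 to 0.41 for HPGDS and -0.28 to 0.13 for ENPP3. Their signals lay between percentile 5.21 and 28.5 of the named genes, and at such levels a change may be compressed, so these values do not show that the genes were unaltered.

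**Figure D1:**
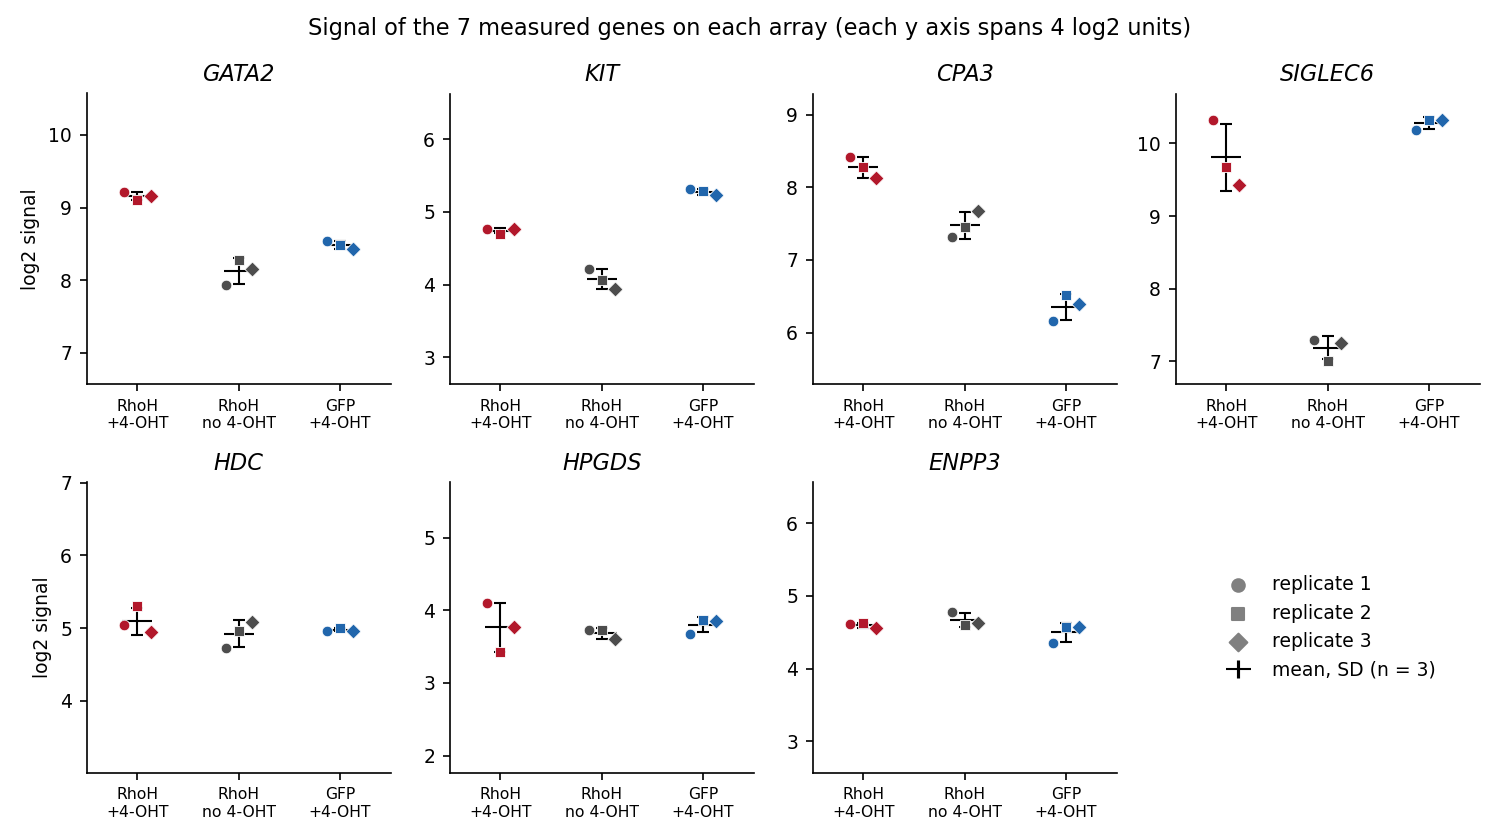
Log2 signal (y axis, each spanning 4 log2 units) of the 7 measured genes in RhoH cells with 4-OHT, RhoH cells without 4-OHT and GFP cells with 4-OHT (x axis); points are arrays with a marker for each replicate number, and bars the mean and SD (n = 3). GATA2 is highest in induced RhoH cells (9.11 to 9.21), KIT in GFP cells (5.23 to 5.31), CPA3 is lowest in GFP cells (6.16 to 6.52), and SIGLEC6 is low in uninduced RhoH cells (7.01 to 7.30).

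Between RhoH cells with and without 4-OHT, 4 of the 7 genes were called and all 4 were higher (CPA3, GATA2, KIT and SIGLEC6), where 3.78% of all named genes were called, 3.02% higher and 0.751% lower. The median difference was 0.67 over the 7 genes and -0.00 (-0.0043) over all named genes. Between RhoH and GFP cells, both with 4-OHT, 2 were called higher (CPA3 and GATA2) and 1 lower (KIT), against 4.49% of all named genes called, 1.74% higher and 2.75% lower. The medians there were 0.10 and 0.03. Between uninduced RhoH and GFP cells 1 was higher (CPA3) and 3 lower (GATA2, KIT and SIGLEC6), against 15.3% of all named genes called, 6.01% higher and 9.27% lower, with medians of -0.12 and 0.05. Arrays of the groups compared did not overlap for 4, 3 and 5 of the 7 genes in these comparisons, against 14.5%, 22.5% and 37.3% of all named genes. At an unadjusted p under 0.05, 14.5%, 16.4% and 25.8% of all named genes differed in the 3 comparisons, and 4 of the 7 in each. The comparisons share arrays, and since the genes were chosen with these values known, the counts are given as a description.

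**Figure D2:**
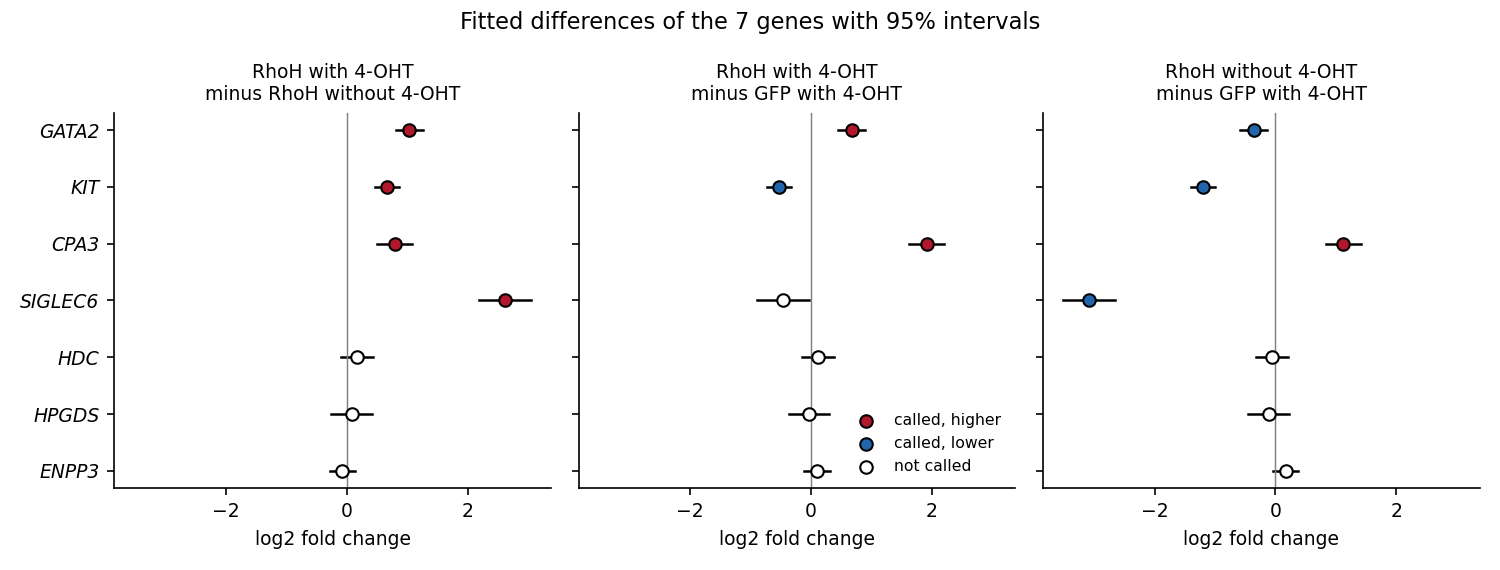
Fitted log2 fold change (x axis) of the 7 genes (y axis) in the 3 comparisons, with 95% intervals from limma; filled points passed an adjusted p of 0.05 over all named genes. All 4 called genes are higher with 4-OHT in RhoH cells, but KIT (-0.53) and CPA3 (1.91) lie on opposite sides between RhoH and GFP cells with 4-OHT.

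The other Siglec genes, which encode sialic acid-binding receptors and of which many sit in a cluster with SIGLEC6 on chromosome 19, were examined next. Of 14 listed, 11 were measured. With 4-OHT in RhoH cells 5 were called higher and 0 lower, against 3.02% and 0.751% of all named genes. The median difference over the 11 was 0.36. SIGLEC12 had log2 signals of 6.98, 6.98 and 7.23 with 4-OHT, against 6.21, 5.84 and 5.96 without (difference 1.06, SE 0.12, adjusted p = 0.000909). SIGLEC5 rose by 0.80 (adjusted p = 0.00655) and SIGLEC10 by 0.76 (adjusted p = 0.0220). The lower ones of the 5 were SIGLEC14 at 0.61 (adjusted p = 0.00713) and SIGLEC7 at 0.49 (adjusted p = 0.0410). SIGLEC5 and SIGLEC12 kept their calls in every alternative. SIGLEC14 lost its call in a fit of only the 6 arrays compared (adjusted p = 0.0518). SIGLEC10 lost its call in that fit (0.109), with all probe sets tested (0.0630), without RhoH without 4-OHT replicate 2 (0.0768) or 3 (0.0706) and without RhoH with 4-OHT replicate 1 (0.0632) or 3 (0.0541). SIGLEC7 lost its call in 11 of the 19 alternatives (adjusted p up to 0.168), among them those without RhoH without 4-OHT replicate 2 or 3, RhoH with 4-OHT replicate 1 or 2, or any GFP array.

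Between induced RhoH and GFP cells, limma called 0 Siglec genes higher and 4 lower, with a median of -0.03 over the 11 (unadjusted p under 0.05: 1 higher, 5 lower). Of all named genes 1.74% were called higher and 2.75% lower there. SIGLEC10 was at 0.45 (adjusted p = 0.156). Its 3 induced arrays all lay above the 3 GFP arrays, but arrays of these groups did not overlap for 22.5% of all named genes. The 4 genes called lower were SIGLEC7 (-0.99, adjusted p = 0.000908), SIGLEC14 (-0.75, adjusted p = 0.00197), SIGLEC5 (-0.66, adjusted p = 0.0158) and SIGLEC9 (-0.61, adjusted p = 0.0302). The first pair kept their calls in every alternative, whereas SIGLEC5 lost its call without GFP replicate 2 (0.0881) or 3 (0.0721). SIGLEC9 lost its call in 7, among them those without GFP replicate 1 (0.0621), 2 (0.146) or 3 (0.117), RhoH with 4-OHT replicate 2 (0.0831) or 3 (0.0658), or RhoH without 4-OHT replicate 3 (0.0548). In uninduced RhoH cells 5 were called lower than in GFP cells and 0 higher, against 9.27% and 6.01% of all named genes. The 3 lowest were SIGLEC7 (-1.48), SIGLEC5 (-1.45) and SIGLEC12 (-1.43). These shares of all named genes, by comparison and direction, are also the ones to set beside the counts of the lists below. SIGLEC5 and SIGLEC14 are near-identical over part of their length, so their probe sets may share signal, and whether other Siglec probes do was not tested. SIGLEC8, a receptor of eosinophils and mast cells, lay between 4.62 and 4.75 in the 3 group means and was not called.

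**Figure D3:**
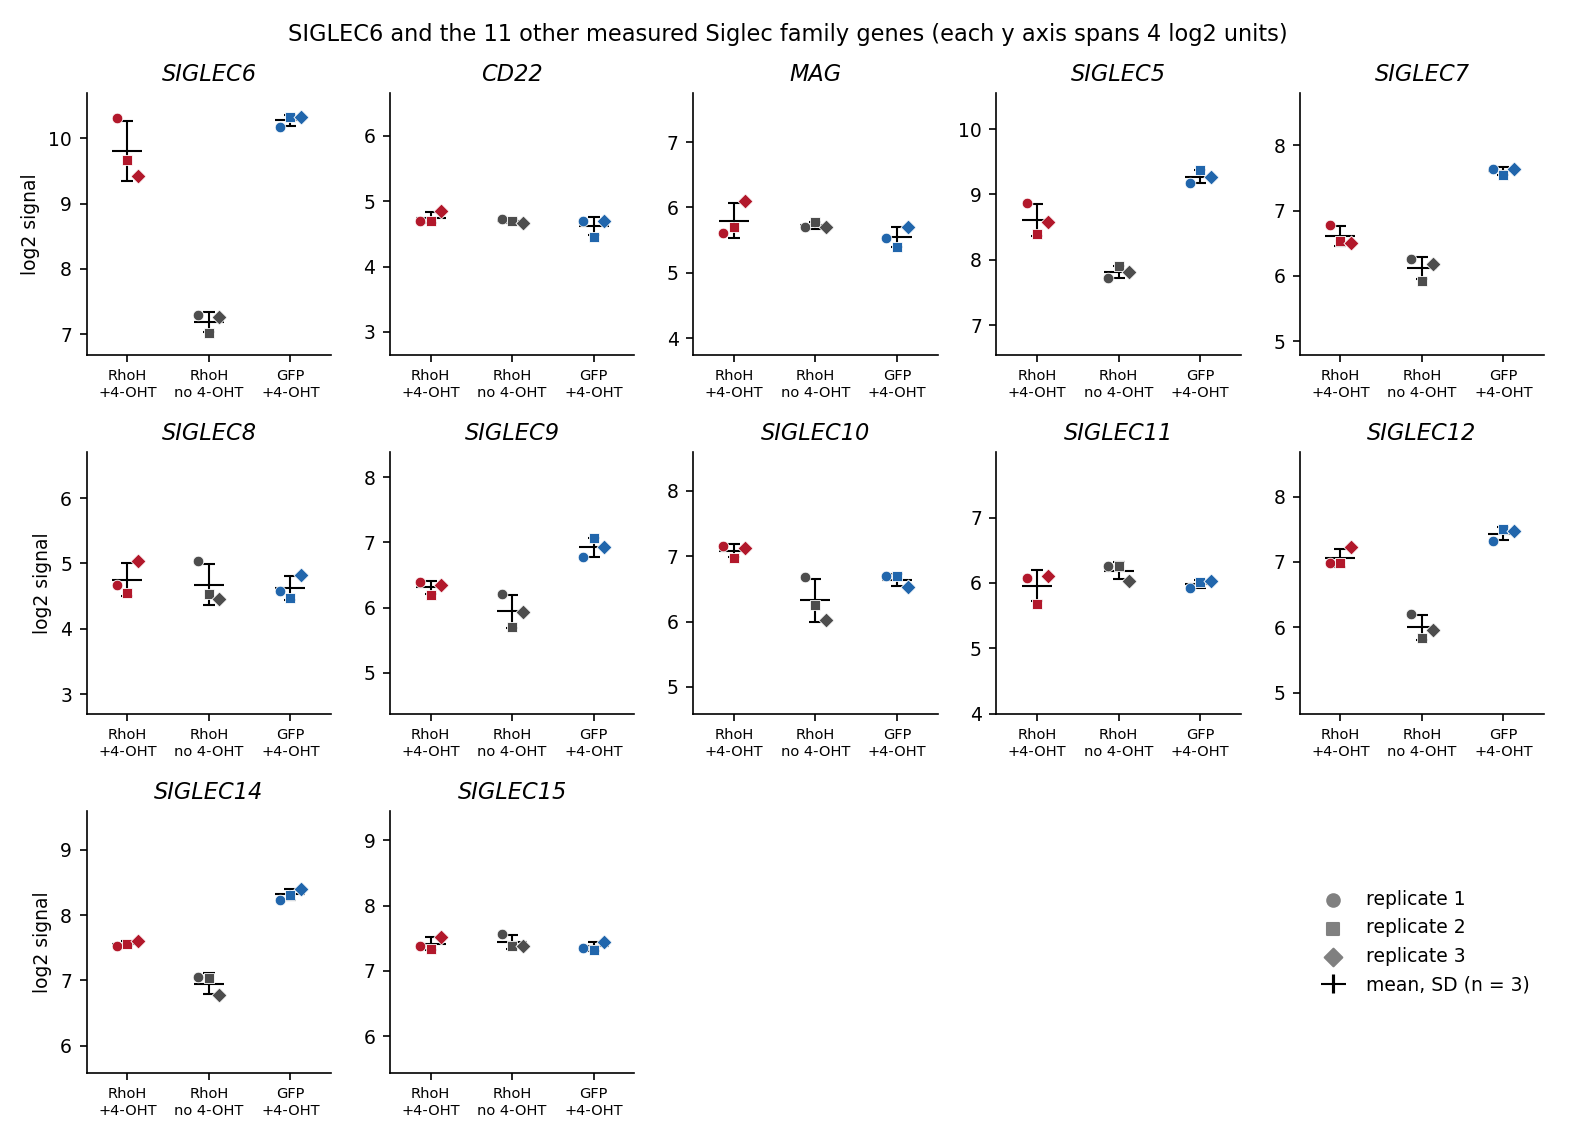
Log2 signal (y axis, each spanning 4 log2 units) of SIGLEC6 and the 11 other measured Siglec genes in RhoH cells with 4-OHT, RhoH cells without 4-OHT and GFP cells with 4-OHT (x axis), with arrays as points and the mean and SD (n = 3) as bars. SIGLEC5, SIGLEC7, SIGLEC12 and SIGLEC14 are lowest in uninduced RhoH cells and highest in GFP cells, while SIGLEC11 and SIGLEC15 have no call.

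Some signalling genes below the IgE receptor were, like SIGLEC6, lowest in uninduced RhoH cells. Of 21 listed, 9 were measured, and with 4-OHT in RhoH cells LAT, LYN and GAB2 rose, 0 fell, and 6 did not pass (median 0.21). The adaptor LAT had log2 signals of 9.50, 8.79 and 9.34 with 4-OHT, against 7.01, 6.74 and 6.60 without (difference 2.43, SE 0.18, adjusted p = 7.28e-05). The kinase LYN had 9.67, 9.58 and 9.80 with 4-OHT, against 8.62, 8.76 and 8.59 without (1.03, SE 0.09, adjusted p = 0.000186). The adaptor GAB2 was 0.66 higher (adjusted p = 0.00819), a call lost in a fit of only the 6 arrays compared (0.0623). SYK, the kinase that carries the receptor signal onward, was at -0.08 (SE 0.11, adjusted p = 0.864), and BTK at -0.18 (adjusted p = 0.641). Between induced RhoH and GFP cells limma called 0 of the 9 (unadjusted p under 0.05: 0 higher, 1 lower), with LAT at -0.22 (adjusted p = 0.593) and LYN at -0.28 (adjusted p = 0.120). Of all named genes 4.49% were called there. The arrays did not overlap for 4 of the 9 (LYN, GAB2, STIM1 and BTK, all lower in RhoH cells), against 22.5% of all named genes. In uninduced RhoH cells LAT (-2.65), LYN (-1.31) and GAB2 (-0.84) were the 3 lowest of 4 genes called lower than in GFP cells.

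Among the other mast cell and basophil genes, 24 of 31 listed were measured, and with 4-OHT in RhoH cells 4 rose, 1 fell and 19 did not pass (median 0.05). CD63, a tetraspanin of granule membranes that reaches the surface of basophils on activation, had log2 signals of 8.53, 8.41 and 8.53 with 4-OHT, against 6.89, 6.97 and 7.05 without (difference 1.52, 2.87-fold, adjusted p = 1.19e-05). PTGS1, a cyclooxygenase, rose by 0.79 (adjusted p = 0.0141, but 0.0902 in a fit of only the 6 arrays compared). ALOX5AP, which presents arachidonic acid to 5-lipoxygenase, rose by 0.55 (adjusted p = 0.00360). ALOX5, the lipoxygenase of leukotriene synthesis, rose by 0.42 (adjusted p = 0.0205). Its call was lost without RhoH without 4-OHT replicate 3 (0.0563), RhoH with 4-OHT replicate 2 (0.0630) or GFP replicate 3 (0.0506), with all probe sets tested (0.0550) and in the fit of 6 arrays (0.118). The protease gene CTSG fell by 0.83 on the log2 scale (adjusted p = 0.00703), a call lost without both RhoH replicate 1 arrays (0.0541) and in the fit of 6 arrays (0.0518). The tryptase genes TPSAB1 and TPSB2, near-identical copies that a probe set may not tell apart, were at -0.44 (adjusted p = 0.161) and 0.46 (adjusted p = 0.468).

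Between induced RhoH and GFP cells, CTSG (1.64, adjusted p = 0.000134), CLC (1.55, adjusted p = 0.0266) and the histamine receptor gene HRH4 (1.00, adjusted p = 0.00437) were higher in RhoH cells. CTSG is also counted here as a promyelocyte marker and CLC as an eosinophil marker. HRH4 had log2 signals of 8.90, 9.06 and 9.07 in RhoH cells with 4-OHT, 8.13, 8.62 and 8.76 without, and 8.08, 7.95 and 8.01 in GFP cells. CD63 (-0.66, adjusted p = 0.00153), PTGS2 (-0.94, adjusted p = 0.0417) and ALOX5 (-0.39, adjusted p = 0.0271) were lower, and the median of the 24 was 0.14. CTSG, HRH4 and CD63 kept these calls in every alternative. CLC lost its call without GFP replicate 1 (0.0938), 2 (0.0956) or 3 (0.117), with all probe sets (0.0667) and in the fit of 6 arrays (0.0525). PTGS2 lost its call in 12, among them those without any 1 array except GFP replicate 1 (adjusted p up to 0.104 without an array), and its GFP signals were 6.85, 5.93 and 5.90. ALOX5 lost its call in 6, those without RhoH with 4-OHT replicate 1 (0.0602) or 3 (0.0538), GFP replicate 1 (0.121), 2 (0.105) or 3 (0.106), and with all probe sets (0.0610). Between uninduced RhoH and GFP cells 4 of the 24 were higher and 4 lower, from CTSG at 2.47, CLC at 1.75 and TPSAB1 at 0.60 to ALOX5AP at -0.84, PTGS2 at -1.02 and CD63 at -2.18. TPSAB1 lost that call without RhoH without 4-OHT replicate 1 (0.0613) or GFP replicate 2 (0.0752) or 3 (0.0861).

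Genes that handle histamine and prostanoids were taken as a further list, with 16 of 17 measured. With 4-OHT in RhoH cells 3 rose and 0 fell (median 0.08), PTGS1 as above, TBXAS1, the thromboxane synthase gene, and HNMT, whose enzyme methylates histamine to inactivate it. TBXAS1 read exactly the same value, 8.02, on all 3 arrays with 4-OHT, against 7.34, 7.32 and 7.06 without. The rise was 0.78 (SE 0.09, adjusted p = 0.00124), but with such a repeat the SD, and with it the SE, may be too small. HNMT had 6.30, 6.30 and 6.42 with 4-OHT, against 5.55, 5.55 and 5.85 without (0.69, SE 0.11, adjusted p = 0.00655). Both kept these calls in every alternative. Against GFP cells, TBXAS1 (-0.67, adjusted p = 0.00307) and HNMT (-0.56, adjusted p = 0.0175) were lower in induced RhoH cells, as was PTGS2, while HRH4 was higher (median 0.10). HNMT lost that call without RhoH with 4-OHT replicate 2 (0.0519) or GFP replicate 2 (0.0956) or 3 (0.0798). In uninduced RhoH cells TBXAS1 (-1.45), HNMT (-1.24) and PTGS2 (-1.02) were lower than in GFP cells and PTGES3 was higher (0.39). PTGES3 lost that call without GFP replicate 3 (0.0539). The histamine receptor genes HRH1, HRH2 and HRH3 were not called in any comparison.

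The genes around KIT were less uniform. Of 20 ligand, adaptor and feedback genes 12 were measured, and with 4-OHT in RhoH cells LYN, DUSP6 (0.87, adjusted p = 0.0197) and BCL2L11 (0.65, adjusted p = 0.0361) rose and 0 fell (median 0.19). DUSP6 encodes a phosphatase that restrains ERK kinases, and its call was lost without RhoH without 4-OHT replicate 3 (0.0510), RhoH with 4-OHT replicate 1 (0.0514) or both RhoH replicate 1 arrays (0.0839), with all probe sets (0.0567) and in the fit of 6 arrays (0.107). BCL2L11, which encodes the death-promoting BIM, lost its call without any 1 array except RhoH with 4-OHT replicate 3 (adjusted p up to 0.0985), without both RhoH replicate 1 arrays (0.114), with all probe sets (0.0963) and in the fit of 6 arrays (0.157). KITLG, the gene of the KIT ligand, was at 0.41 (adjusted p = 0.230). Against GFP cells only SPRY2, a feedback inhibitor of receptor tyrosine kinases, was called in induced RhoH cells (0.86, adjusted p = 0.0134), and the call was lost without GFP replicate 2 (0.0701) or 3 (0.0718). The related receptor gene FLT3 had log2 signals of 8.58, 8.66 and 8.62 in RhoH cells with 4-OHT, 8.18, 8.79 and 8.87 without, and 7.66, 7.58 and 7.63 in GFP cells. It was above GFP levels by 1.00 in RhoH cells with 4-OHT (adjusted p = 0.00606) and by 0.99 in those without (adjusted p = 0.00177), where KIT was below them. CSF1R, the other measured receptor gene of this class, was not called. In uninduced RhoH cells SPRY2 (0.79) and STAT5B (0.62) of the KIT list were above GFP levels, and LYN (-1.31), DUSP6 (-0.72) and BCL2L11 (-0.50) below them. BCL2L11 lost that call in 8 of the alternatives (adjusted p up to 0.131), those without RhoH without 4-OHT replicate 1 or 3 or any GFP array among them, and DUSP6 without GFP replicate 2 (0.0700) or 3 (0.0596) or both RhoH replicate 1 arrays (0.0562).

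GATA family, partner and other blood transcription factor genes formed a further list. Of all named genes 3.78% were called between RhoH cells with and without 4-OHT. The shares were 4.49% between induced RhoH and GFP cells and 15.3% between uninduced RhoH and GFP cells. Of 25 listed, 19 were measured, and with 4-OHT in RhoH cells limma called 0 of them (unadjusted p under 0.05: 3 higher, 1 lower), with a median of 0.00 (0.0017). At the share of all named genes, 0 of 19 does not set the list apart. Arrays of these groups did not overlap for 6 of the 19, against 14.5% of all named genes. GATA1, which replaces GATA2 in erythroid cells, had log2 signals of 6.82, 6.66 and 6.68 in RhoH cells with 4-OHT, 6.72, 6.59 and 6.82 without, and 6.73, 6.68 and 6.61 in GFP cells. TAL1 was at -0.05 (SE 0.15), LMO2 at -0.17 (SE 0.11) and RUNX1 at 0.28 (SE 0.08, adjusted p = 0.120). MITF, a mast cell factor, read 5.71 or 5.72 on every array and took 3 distinct values on the 9, so its probe set gives no measure of a difference. Against GFP cells LYL1 (0.70, adjusted p = 0.00726), MYB (0.57, adjusted p = 0.0218) and GFI1 (0.49, adjusted p = 0.0188) were higher in induced RhoH cells, with a median of 0.13 over the 19. LYL1 kept its call in every alternative. GFI1 lost its call without RhoH with 4-OHT replicate 2 (0.0541) or GFP replicate 1 (0.0735), 2 (0.0919) or 3 (0.0851). MYB lost its call in 8, among them those without RhoH with 4-OHT replicate 1 (0.0521) or 2 (0.0641) or GFP replicate 1 (0.0868), 2 (0.105) or 3 (0.0784). In uninduced RhoH cells 5 were higher than in GFP cells, led by MYB (0.95), GFI1 (0.58) and KLF1 (0.53), and 0 were lower. KLF1 lost that call in 8 of the alternatives, without any 1 uninduced RhoH or GFP array among them (adjusted p up to 0.147).

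Relatives of CPA3 and ENPP3 had no calls, but the lists are short. Of all named genes 3.78%, 4.49% and 15.3% were called in the 3 comparisons, so 0 calls do not set CPA3 apart from its family. Group means of these relatives ran from 2.90 for CPA6 in GFP cells to 6.90 for ENPP4 in uninduced RhoH cells. Of 6 measured carboxypeptidase genes beside CPA3, limma called 0 in each comparison (0, 1 and 0 at an unadjusted p under 0.05, in the order above). The 5 measured ENPP genes beside ENPP3 also had 0 calls, and 0 at an unadjusted p under 0.05. None of the 6 listed genes of the MS4A family had a named probe set.

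Markers of other cell types also differed in the comparisons with GFP cells. There CPA3 was higher in both RhoH groups, KIT was lower in both, and GATA2 was higher in induced and lower in uninduced cells. All 4 measured promyelocyte markers were higher in RhoH than in GFP cells, with a median of 1.48 in induced and 1.56 in uninduced cells. The 3 highest in induced cells were PRTN3 (1.69), CTSG (1.64) and AZU1 (1.33), and in uninduced cells CTSG (2.47), PRTN3 (1.84) and AZU1 (1.28). Of 11 eosinophil markers 5 were measured, and their mean log2 signal was 6.51 to 6.81 in RhoH cells with 4-OHT, 6.63 to 7.05 without and 5.84 to 5.89 in GFP cells. EPX, the eosinophil peroxidase gene, was 1.99 (adjusted p = 0.000266) and 2.74 (adjusted p = 7.12e-06) above GFP levels in induced and uninduced RhoH cells. CLC was higher in both, and PRG3 in uninduced cells (0.50, adjusted p = 0.0240, a call lost in 6 of the alternatives, without RhoH without 4-OHT replicate 1 or 2 or GFP replicate 1 or 2 among them, adjusted p up to 0.106). With 4-OHT in RhoH cells EPX was at -0.75 (adjusted p = 0.0560), CTSG was lower and MPO at -0.26 (adjusted p = 0.109), whereas CPA3 was higher. The mean signal of 6 erythroid and megakaryocyte markers was 6.22 to 6.50, 6.25 to 6.40 and 6.13 to 6.15 in the 3 groups, that of 4 lymphoid markers 5.73 to 5.99, 5.72 to 5.88 and 5.73 to 5.81, and that of 6 stem and progenitor markers 5.03 to 5.08, 4.99 to 5.19 and 4.94 to 5.00. With 4-OHT in RhoH cells limma called 0 members of these 3 lists (at an unadjusted p under 0.05, 1 lymphoid marker was higher and 0 others differed). The part of these cell types in the differences of CPA3, KIT and GATA2 was not tested.

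**Figure D4:**
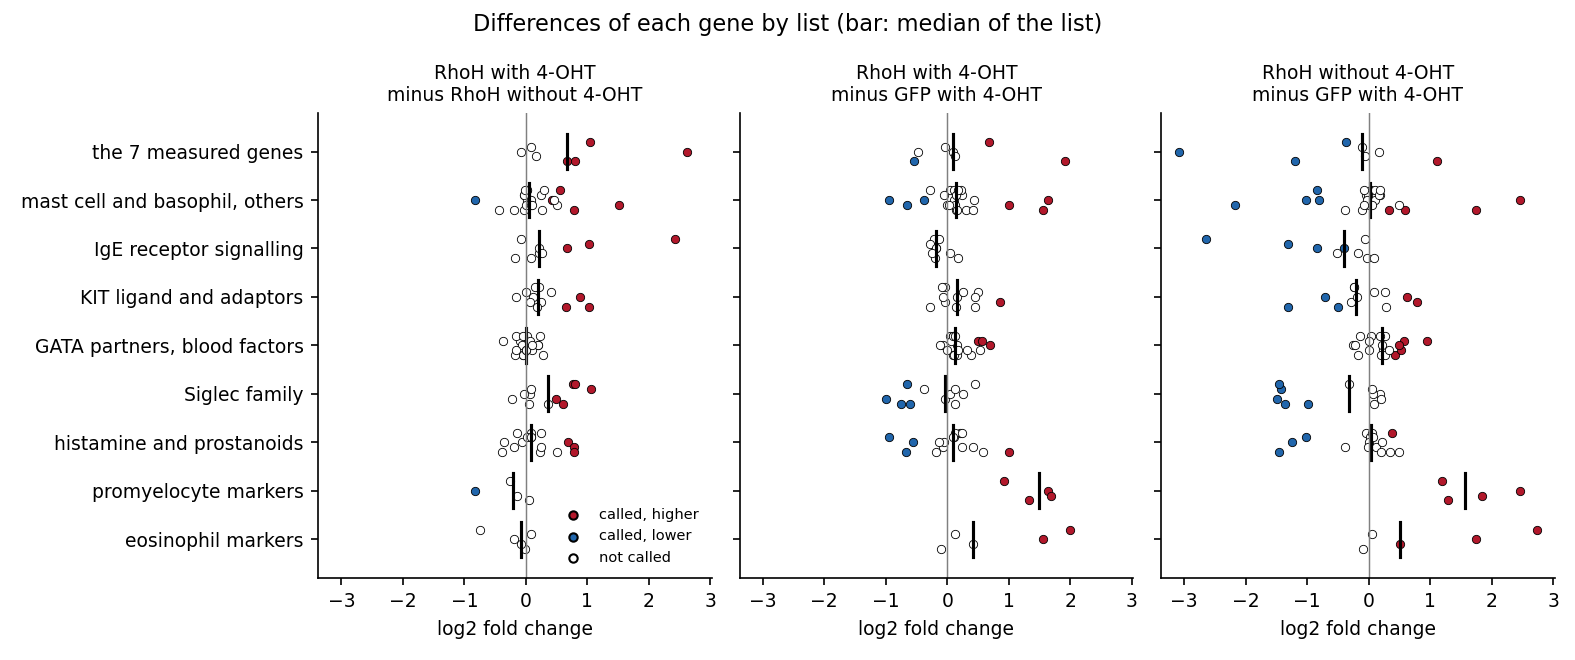
Fitted log2 fold change (x axis) of each measured gene by list (y axis) in the 3 comparisons; filled points passed an adjusted p of 0.05 over all named genes and vertical bars are list medians. Promyelocyte markers lie above GFP levels in both RhoH groups (medians 1.48 and 1.56). The transcription factor list has no called gene with 4-OHT in RhoH cells, where 3.78% of all named genes were called.

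Genes whose signal was most like that of GATA2 and of CPA3 over the 9 arrays were ranked by Pearson's r among 5756 genes outside the list with an SD of at least 0.2. The 5 nearest to GATA2 (r = 0.945 to 0.976) were LY96, E2F8, SLAMF6, TMEM116 and IQGAP2. LY96, the partner of TLR4 in sensing lipopolysaccharide, was 6.53 ± 0.42 (SD, n = 3) in RhoH cells with 4-OHT, 4.53 ± 0.20 without and 5.38 ± 0.01 in GFP cells (log2). SLAMF6, a receptor of the SLAM family, was 7.74 ± 0.09, 6.29 ± 0.24 and 7.12 ± 0.00 in the same order, and an SD of 0.00 may be too small. The 5 nearest to CPA3 (r = 0.950 to 0.966) were KDM5B, TRAM1, AEBP1, NDFIP2 and PLAGL1, and KDM5B, a histone demethylase gene, was 9.79 ± 0.04, 9.55 ± 0.15 and 9.05 ± 0.08. These correlations describe points that share arrays and fall into 3 groups, and are no evidence of a relation between genes.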

How the data were processed

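Total RNA of 9 cultures was hybridised to Affymetrix whole-transcript arrays. The authors deposited 1 table of log2 signals for 43550 probe sets, which per the submitters' processing notes came from Affymetrix Power Tools, RMA and limma, with versions and genome build not given in the sources used here. The RMA method adjusts for background, applies quantile normalization and summarises probes into probe sets, and it compresses low signals. No further normalization was applied. A platform annotation named 15659 probe sets with 1 symbol, 0 with several and left 27891 unnamed, and all 15659 Entrez identifiers matched RefSeq (GRCh38.p14). A gene with several probe sets was represented by its brightest on average, giving 14778 genes. The group of each array is that of its title, and no pair of arrays was identical.

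Differences were fitted with limma 3.58.1 in R 4.3.3 on all 9 arrays with 3 group means, 6 residual and 3.86 prior degrees of freedom. The 3 groups share 1 estimate of the spread, although SDs of the deviations were 0.0904 to 0.0959 on GFP and 0.130 to 0.206 on RhoH arrays. An SE between both RhoH groups thus draws on the GFP spread too and may be too small. The fit of only the 6 arrays compared leaves the third group out. Calls are at a Benjamini-Hochberg adjusted p under 0.05 over all 14778 genes, and every adjusted p printed is from limma. The fit was tested on simulated data, independent normal values with the same spread in each group and changes planted in RhoH cells with 4-OHT. Unequal spread, deviations shared by replicate number and repeated signals were not simulated, so that test does not cover them. Precision is limited by the number of arrays. Promoter windows were searched with Python 3.11.15. The 9 genes and the 15 further lists were chosen with earlier results of these data known, and the lists are described by counts and medians. The named genes are the measured members, of each further list the 3 highest and 3 lowest called genes in each comparison, and the 5 genes most like GATA2 and CPA3. Exceptions to that rule, given as uncalled values or per family, were named after their values were seen. Of all named genes 6067 (41.1%) held a signal repeated exactly on at least 2 arrays, so SDs of such genes may be too small. KIT, HDC, HPGDS, ENPP3 and TBXAS1 are among them.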

Additional observations from a re-analysis of the deposited data

How the results depend on the processing

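Each difference was refitted under 19 alternatives, 9 of which leave out 1 array, and 18 for the 4 dimmest genes, which a filter on the dimmest 25% removes. For the 7 genes 368 of these fits kept direction and side of the threshold, 8 lost a call, 3 gained one and 8 changed sign. The sign changes were those of uncalled genes near 0. HPGDS, RhoH with against without 4-OHT, was at -0.0676 with array weights, -0.0644 without both RhoH replicate 1 arrays and -0.0854 to 0.2498 without 1 array, the lowest without RhoH with 4-OHT replicate 1. Against GFP cells it was at -0.2007 to 0.1345 without 1 array, above 0 without RhoH with 4-OHT replicate 2 and, at 0.0024, without GFP replicate 2. HDC, uninduced RhoH against GFP, was at 0.0511 with array weights, 0.0494 without both RhoH replicate 1 arrays and -0.1329 to 0.0494 without 1 array, the highest without RhoH without 4-OHT replicate 1. The number of the 7 genes called was 4, 2 to 4 and 3 to 4 in the 3 comparisons when 1 array was left out. The calls over all named genes moved more. For RhoH with against without 4-OHT, 558 became 190 where only the 6 arrays compared were fitted, 950 with array weights, 953 after quantile normalization again and 304 to 666 without 1 array. For induced RhoH against GFP, 664 became 1176 with array weights and 279 to 861 without 1 array, and for uninduced RhoH against GFP 2258 became 4326 and 1450 to 2670. The balance of directions moved too. In the first comparison 80.1% of the calls were higher, against 61.7% after quantile normalization again, 59.2% with array weights, 95.8% in the fit of 6 arrays and 58.0% to 94.4% without 1 array. For induced RhoH against GFP 38.7% were higher, with 30.3% to 51.9% without 1 array, the highest without RhoH with 4-OHT replicate 1 (319 higher, 296 lower). For uninduced RhoH against GFP 39.3% were higher, and 54.5% with array weights (2358 higher, 1968 lower). The replicate numbers do not pair the samples by the labels, and deviations of same-numbered arrays correlated at -0.03 to 0.54, with 6 of 9 arrays most like their own number. With the replicate number as a block the calls were 684, 820 and 2558, and 4, 3 and 4 of the 7 genes. Low signals limit what HDC, HPGDS, ENPP3 and KIT can show.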
